A study of Homo sapiens with 3 samples.

Results

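Mitochondrial ribosomal protein genes were examined in 3 RNA sequencing libraries of MIAPaCa-2, a cell line derived from a human pancreatic carcinoma. Members were the genes whose symbol was MRPL or MRPS followed by a number, with a letter where there is one, together with DAP3, a small subunit protein with an older name. The rule gave 79 of the 14949 genes in the table, 49 with a large subunit symbol and 30 with a small subunit symbol. The 3 pseudogene rows with such a symbol (MRPL45P2, MRPS31P4 and MRPS31P5) were left out. All 79 members of the gene annotation used here were present in the table, on 21 chromosomes, and their mean normalized counts lay between 436 and 9754, so that a filter on low counts removed none of them.

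The mitochondrial ribosome, or mitoribosome, translates the few mRNAs that the mitochondrial genome encodes, all of them for subunits of the respiratory chain and ATP synthase. Its ribosomal RNAs come from mitochondrial DNA, whereas its proteins are encoded in the nucleus, made on cytosolic ribosomes and imported. The small subunit decodes the mRNA and the large subunit forms the peptide bond. Many of the proteins descend from bacterial ribosomal proteins, and others were added in the mitochondrial lineage.

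The study asked which transcripts depend on METTL3, the catalytic subunit of the enzyme that writes N6-methyladenosine into mRNA, and what inhibition of PLK1, a kinase that drives mitosis, does in the same cells. One library came from cells with a control short hairpin RNA (sh-CTL) and no further treatment. Another came from untreated cells with a short hairpin RNA against METTL3 (sh-METTL3), a stable line that the study received from a colleague. The last library came from sh-CTL cells kept for 24 h in 80 nM NMS-P937, an inhibitor of PLK1 (sh-CTL + PLK1i). All cells were grown in DMEM with fetal bovine serum. Each group was 1 library, so no difference had a replicate check and no p-value was computed. Whether the hairpin line was a clone and whether the untreated libraries received a vehicle was not given in the sources used here. Both comparisons used the same sh-CTL library, so an unusual value in that library would enter both.

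The libraries held 37449259, 46944920 and 47727541 reads in listed genes, in the order sh-CTL, sh-METTL3 and sh-CTL + PLK1i, which is the order of all values below. A normalized count is the number of reads divided by the size factor of its library (0.858, 1.08 and 1.09). METTL3 itself had normalized counts of 3939, 1651 and 3888, so sh-METTL3 kept 41.9% of the control level. PLK1 had 8058, 5226 and 8515. Of 6 epithelial markers, the keratins KRT8, KRT18 and KRT19 were at a summed 3469, 4192 and 3222 CPM (reads scaled to the depth of the library), while KRT7, EPCAM and CDH1 were not in the table. Of 5 fibroblast markers, 3 were listed with a summed 1193, 943 and 942 CPM, almost all of it COL1A2. In sh-METTL3 the log2 change of COL3A1 was -3.82, on 527, 46 and 411 reads. That of COL1A1 was -2.63 with a wide counting interval (-4.38 to -1.56), on only 34, 6 and 36 reads. Leukocyte markers summed to at most 4.43 CPM with PTPRC and CD3E not listed, and no endothelial marker was listed. The part of these differences in the values below was not tested. All 3 libraries were of 1 cell line. Fewer cells that express a marker and less of its RNA per cell cannot be told apart in such bulk libraries.

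As a group the members took almost the same share of the transcriptome in all 3 libraries. They held 0.509% of reads in sh-CTL, with a 95% exact Clopper-Pearson interval of 0.507% to 0.512%. In sh-METTL3 it was 0.525% (0.523% to 0.527%). With the inhibitor it was 0.512% (0.510% to 0.514%). The interval of sh-METTL3 lay above the other 2, which overlapped. Intervals throughout cover counting error only, because reads amplified without molecular identifiers are not independent molecules and because variation between cultures was not measured.

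The balance between subunits was also close. Large subunit genes held 60.2% of the members' reads in sh-CTL (60.01% to 60.45%), 60.6% in sh-METTL3 (60.4% to 60.8%) and 60.4% in sh-CTL + PLK1i (60.2% to 60.6%). MRPS30 and MRPS18A carry small subunit symbols although their proteins sit in the large subunit. With both moved to the large subunit the shares were 62.9%, 63.0% and 63.0%. The libraries lay closer together with both genes moved. This assignment is called by structure below, and it left MRPS36 in the small subunit.

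Levels of different genes were compared only per length, as RPKM, the reads of a gene scaled to the kilobases of its transcript and to the depth of its library. The median large subunit gene was at 41.7, 43.3 and 44.1 on this scale, and the median small subunit gene at 48.8, 46.6 and 47.3. In sh-CTL the median of all genes was 6.59, that of 82 nuclear genes of oxidative phosphorylation 81.4 and that of 81 cytosolic ribosomal protein genes 613. Both subunit medians thus lay above the median of all genes and below those of the nuclear oxidative phosphorylation genes and the cytosolic ribosome.

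Although the proteins occupy the mitoribosome in single copies for the most part, their transcripts did not share 1 level. The top of the order in sh-CTL was MRPL51, a mitochondria-specific protein, at an RPKM of 186, 191 and 195. It was followed by MRPL3, a relative of a bacterial core protein, at 132, 127 and 133. MRPL37, another mitochondria-specific protein, was at 122, 130 and 122. MRPL20 was at 111, 110 and 112, and the highest small subunit gene was MRPS6, at 109, 97.4 and 116. MRPL3 and MRPL37 changed places in sh-METTL3, and MRPL20 and MRPS6 in sh-CTL + PLK1i, so the order of these neighbours was not fixed.

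At the lower end lay MRPL42 (3.96, 4.09 and 3.55), MRPS33 (8.29, 7.43 and 8.18), MRPS11 (9.45, 12.4 and 9.95), MRPL22 (10.1, 11.7 and 10.0) and MRPS28 (11.0, 11.1 and 13.6). Some of these ranks rested on the length given to the gene. The annotated transcript of MRPL42 is 15557 bases long, whereas its coding length is 426 bases, and per coding length it ranked 14 of 79. MRPS33, with 4210 and 318 bases, went from rank 78 to rank 29. Per coding length the highest gene was again MRPL51, at 434 in sh-CTL, and the lowest were MRPS31 at 14.0, MRPS28 at 16.5 and MRPL54 at 19.7. Members had shorter transcripts than other listed genes, with a median of 1260 bases against 2916, and a similar GC content, 48.0% against 48.8%.

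**Figure D1:**
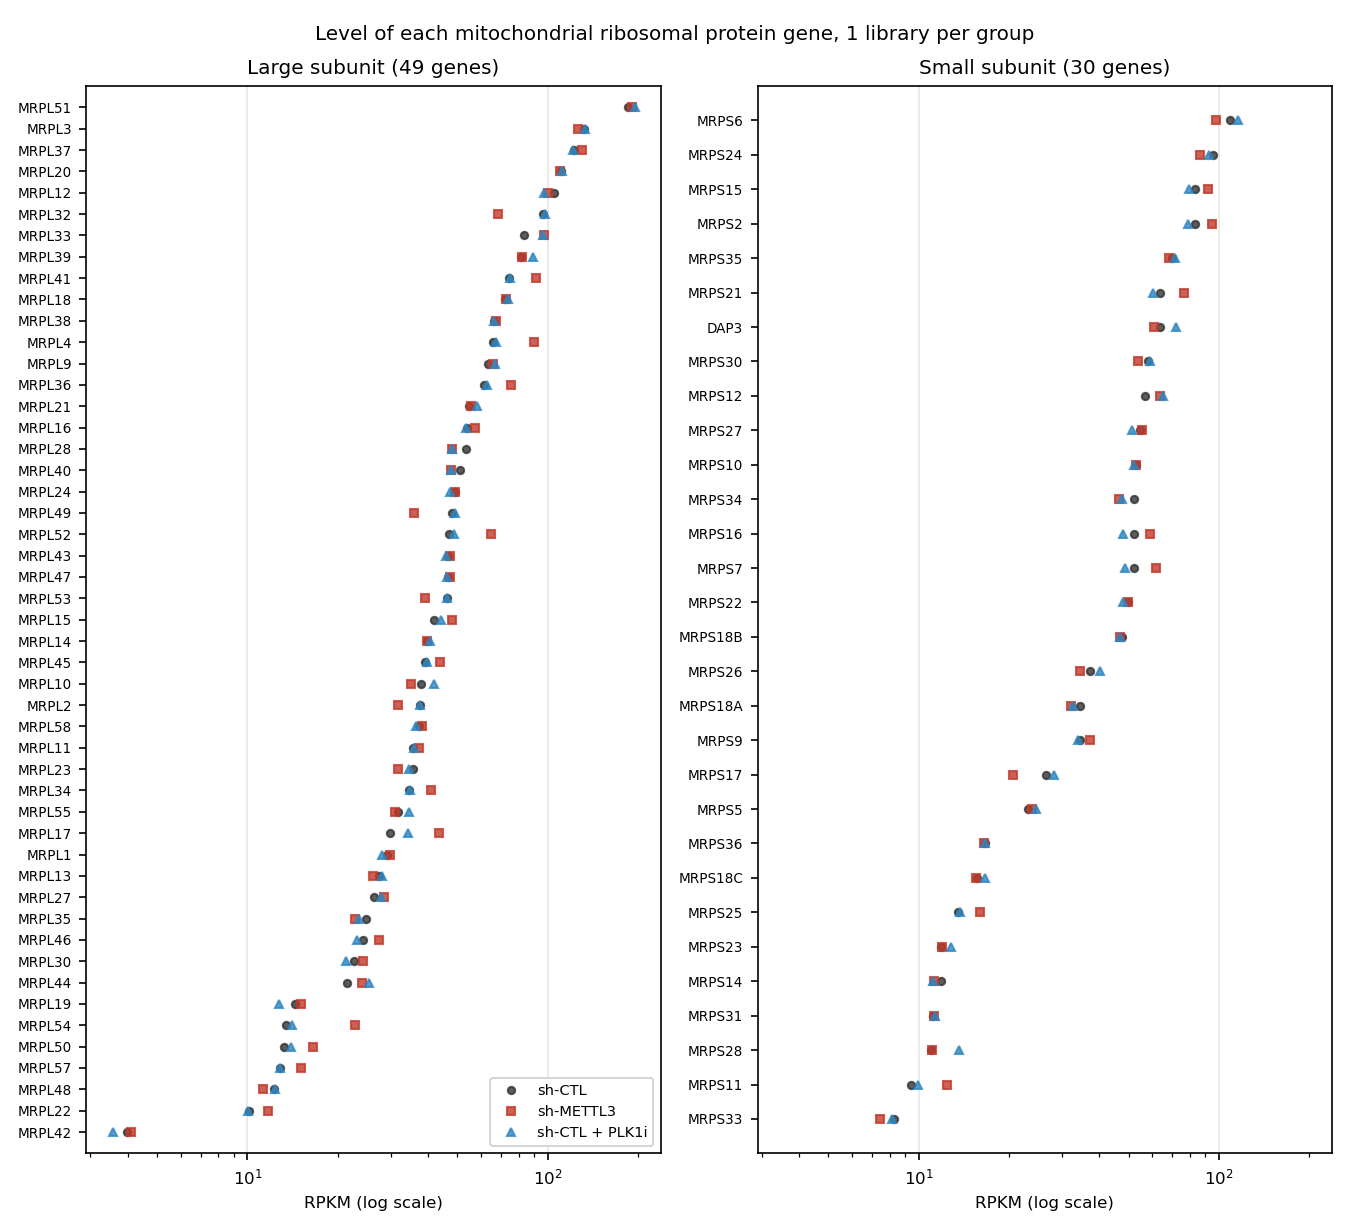
Level of each of the 79 genes in the 3 libraries (circle sh-CTL, square sh-METTL3, triangle sh-CTL + PLK1i), in RPKM on a log axis, with 1 library per group and no error bars. Large subunit genes are on the left and small subunit genes on the right, sorted by sh-CTL. Levels run from 3.96 (MRPL42) to 186 (MRPL51) in sh-CTL, and for most genes the 3 symbols lie almost on top of each other.

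In sh-METTL3 the median mitoribosomal gene moved little. A change here is the difference of log2(normalized count + 1) from sh-CTL, a scale that makes changes of scarce transcripts look somewhat smaller. The median change was 0.02 over all members, 0.03 over the large subunit and -0.01 over the small subunit, beside 0.00 over all genes. The large subunit median was thus higher by 0.04, a difference that has no replicate error to be held against. The changes of single genes had an SD of 0.22 in the large subunit (n = 49 genes) and 0.16 in the small subunit (n = 30 genes). The members' changes had an SD of 0.20, against 0.41 for the 10782 genes whose normalized counts averaged 200 or more, a level that every member reached. In all, 45 members lay above 0 and 34 below. These were 32 above and 17 below in the large subunit, and 13 above and 17 below in the small subunit.

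At least 1.2-fold higher in sh-METTL3 were 8 members, 7 of the 49 large subunit genes (14.3%) and 1 of the 30 small subunit genes (3.33%). That is 10.1% of members, while 19.1% of all genes and 12.3% of those with a mean of at least 200 were this much higher. At least 1.2-fold lower were 3 members, or 3.80%, beside 18.2% of all genes and 14.6% of those with a mean of at least 200. Members were mostly well above that floor, so these genes are not matched to them in abundance. None of the members passed 2-fold in either direction, a size that 6.37% of all genes reached. The counting interval lay above 0 for 28 members, below 0 for 19 and across 0 for 32. In the large subunit these counts were 19, 10 and 20, and in the small subunit 9, 9 and 12. The interval counts over all genes are not given here, so those of the members have nothing to be set against.

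The largest rise was that of MRPL54, a mitochondria-specific large subunit protein (chr19:3762680-3768573 in GRCh37) and the member with the fewest reads in sh-CTL, with 306, 652 and 407 reads. Its normalized counts were 357, 604 and 375, a change of 0.76 (95% interval 0.56 to 0.96) or 1.69-fold in sh-METTL3. MRPL17 (chr11:6701616-6704571), a relative of bacterial protein L17, had normalized counts of 3011, 4343 and 3478 and changed by 0.53 (0.46 to 0.60). The sh-METTL3 library was the highest for both genes, and for MRPL17 the sh-CTL + PLK1i library lay above sh-CTL as well. MRPL4 (chr19:10362577-10370731), whose bacterial relative reaches into the exit tunnel of the ribosome, had 3485, 4787 and 3605, a change of 0.46 (0.39 to 0.52). MRPL52 (chr14:23299088-23304246), a mitochondria-specific protein, had 2275, 3123 and 2388 and also changed by 0.46 (0.38 to 0.54). MRPS11, on the platform of the small subunit, had 1399, 1830 and 1483, a change of 0.39 (0.28 to 0.49), and it was the only small subunit gene past 1.2-fold upward.

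The remaining members past 1.2-fold were MRPL50 at 0.32, MRPL41 at 0.30 and MRPL36 at 0.29, the first 2 mitochondria-specific and the last a relative of a small bacterial protein. Just under the limit, which is 0.263 on the log2 scale, were MRPS21, a relative of bacterial S21, at 0.257 and MRPL34 at 0.24.

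The largest fall was that of MRPL32 (chr7:42971975-42988557 in GRCh37), a protein that is cut to its mature form by a protease of the inner membrane before it joins the large subunit. Its normalized counts were 3625, 2545 and 3708, a change of -0.51 (-0.58 to -0.44). MRPL49 (chr11:64889655-64894843), a mitochondria-specific protein, had 4232, 3172 and 4386 and changed by -0.42 (-0.48 to -0.35). MRPS17 (chr7:56019570-56024193), a relative of bacterial S17, had 2065, 1599 and 2223, a change of -0.37 (-0.47 to -0.27). In each of these 3 genes sh-METTL3 was the lowest library and the other 2 lay close together. MRPL2 at -0.25, a core protein next to the peptidyl transferase centre, and MRPL53 at -0.24 stopped just short of 1.2-fold. The gene of MRPS17 overlaps NIPSNAP2 on the same strand and MRPL49 overlaps SYVN1 on the other strand, so some of their reads could belong to the neighbour.

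**Figure D2:**
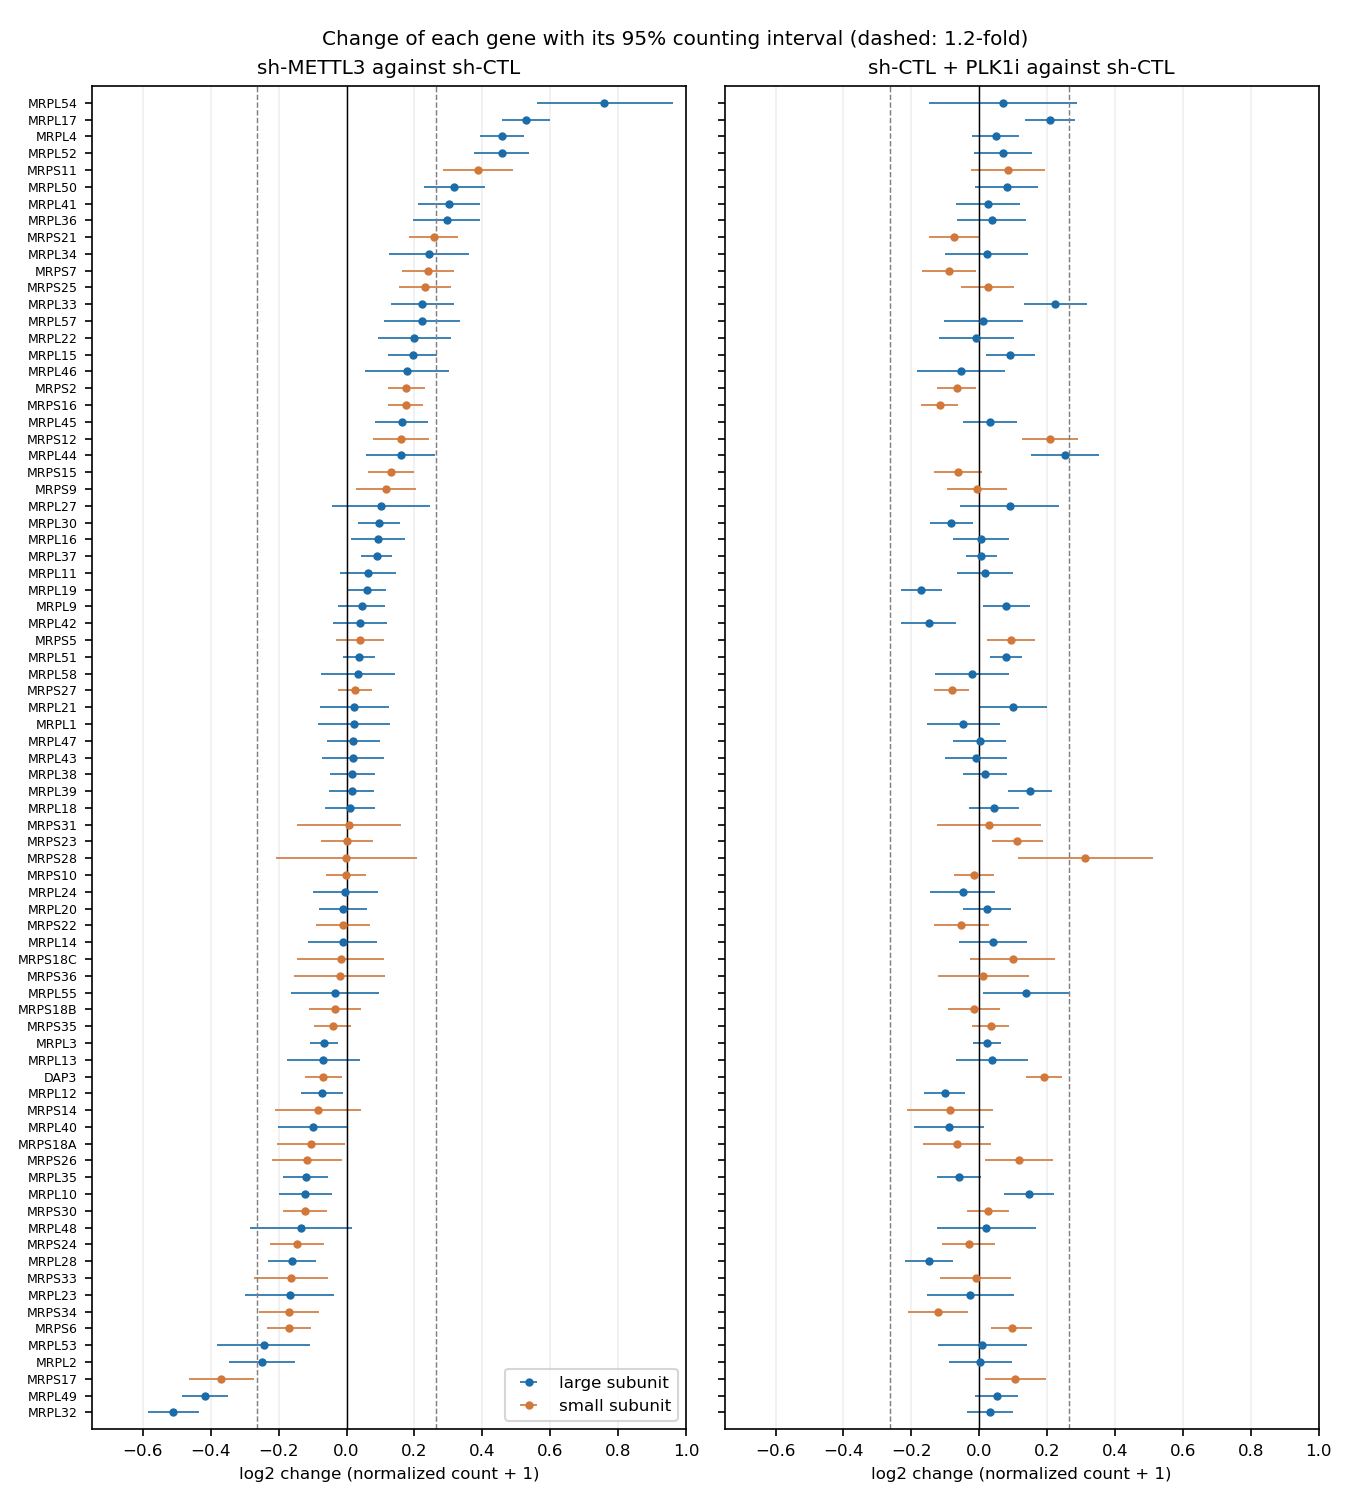
log2 change of each member against sh-CTL in sh-METTL3 (left) and sh-CTL + PLK1i (right), on the scale of normalized counts plus 1, sorted by sh-METTL3. Bars are 95% counting intervals of 1 library against 1 library, dashed lines mark 1.2-fold, and colours separate the subunits. In sh-METTL3 the genes spread from -0.51 (MRPL32) to 0.76 (MRPL54), and in sh-CTL + PLK1i from -0.17 (MRPL19) to 0.31 (MRPS28).

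Grouped by origin, the sh-METTL3 changes of the 19 mitochondria-specific large subunit genes had their median at 0.04, with 15 above 0, 4 at least 1.2-fold higher (MRPL54, MRPL52, MRPL50 and MRPL41) and 1 at least 1.2-fold lower (MRPL49). The share higher was 21.1%, beside the 19.1% of all genes and 12.3% of genes with a mean of at least 200 given above. The share lower was 5.26%, beside 18.2% and 14.6%. Of all 14949 genes, 7503 were above 0. The 30 large subunit genes with bacterial relatives had a median of 0.02, with 17 above 0. At least 1.2-fold higher were 3 of them (10%) and lower 1 (3.33%). In the small subunit the 16 genes with bacterial relatives had a median of 0.08, with 9 above 0. At least 1.2-fold higher was 1 of these (6.25%) and lower 1 (6.25%). The 11 mitochondria-specific small subunit genes had a median of -0.03, with 4 above 0, 0 at least 1.2-fold higher and 0 lower. The SD over the genes of each group was 0.26, 0.20, 0.19 and 0.11 in the order given. The differences between the groups were not tested.

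DAP3, a GTP-binding protein in the head of the small subunit that was first described in cell death, had normalized counts of 5700, 5434 and 6500. It changed by -0.07 (-0.12 to -0.01) in sh-METTL3. With the inhibitor it was at 0.19 (0.14 to 0.24). Reads of DAP3 and of YY1AP1, which overlaps it on the other strand, may not be fully separated. MRPS18A, MRPS18B and MRPS18C are related to bacterial S18. The first sits in the large subunit and the other two at separate sites of the small subunit, where MRPS18C takes the place of S18 and MRPS18B was counted as mitochondria-specific. In sh-METTL3 they were at -0.10, -0.03 and -0.02, and the counting intervals of MRPS18B and MRPS18C spanned 0. MRPS30 was at -0.12 in sh-METTL3 and at 0.03 with the inhibitor. MRPS36, which keeps a ribosomal symbol although its protein is now known as a component of the oxoglutarate dehydrogenase complex, changed by -0.02 and 0.01.

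The promoters of 5 members whose change was large are shown because members that moved apart can be read there side by side. They run from 250 bases before to 50 bases after the first listed transcription start in RefSeq, GRCh38.p14, and were chosen after the values were seen. Capitals mark exact matches, on either strand, to 3 motifs of factors known for nuclear genes of mitochondria. These are GCGCATGC for NRF1, CCGGAAG for ETS factors such as GABP, and ATGGCGGC for YY1. MRPL4, MRPL49, MRPS11 and MRPS17 changed more in size than MRPL50 but are not shown. Their promoters held none of the 3 motifs, so the promoters shown do not stand for all members with a large change. The 5 promoters lie at chr19:3762432-3762731 (plus strand, MRPL54), chr11:6683291-6683590 (minus strand, MRPL17), chr14:22829637-22829936 (plus strand, MRPL52), chr9:101398569-101398868 (minus strand, MRPL50) and chr7:42932126-42932425 (plus strand, MRPL32).
MRPL54: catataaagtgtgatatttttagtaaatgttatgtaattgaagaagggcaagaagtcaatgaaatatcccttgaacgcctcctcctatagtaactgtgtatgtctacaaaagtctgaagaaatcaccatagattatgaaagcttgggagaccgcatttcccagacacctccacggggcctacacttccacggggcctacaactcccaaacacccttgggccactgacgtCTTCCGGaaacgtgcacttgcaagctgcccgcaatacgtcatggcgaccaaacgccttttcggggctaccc
MRPL17: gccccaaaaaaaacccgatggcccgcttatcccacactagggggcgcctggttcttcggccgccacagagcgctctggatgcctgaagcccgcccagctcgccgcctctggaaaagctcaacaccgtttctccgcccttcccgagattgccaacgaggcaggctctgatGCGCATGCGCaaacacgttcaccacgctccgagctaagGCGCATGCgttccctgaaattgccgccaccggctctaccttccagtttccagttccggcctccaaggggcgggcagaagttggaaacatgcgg
MRPL52: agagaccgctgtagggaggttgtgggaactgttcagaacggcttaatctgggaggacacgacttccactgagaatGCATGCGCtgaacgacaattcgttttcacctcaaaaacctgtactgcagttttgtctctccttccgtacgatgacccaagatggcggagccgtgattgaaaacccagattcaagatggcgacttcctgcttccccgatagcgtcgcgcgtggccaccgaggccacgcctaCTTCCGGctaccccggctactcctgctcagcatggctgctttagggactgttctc
MRPL50: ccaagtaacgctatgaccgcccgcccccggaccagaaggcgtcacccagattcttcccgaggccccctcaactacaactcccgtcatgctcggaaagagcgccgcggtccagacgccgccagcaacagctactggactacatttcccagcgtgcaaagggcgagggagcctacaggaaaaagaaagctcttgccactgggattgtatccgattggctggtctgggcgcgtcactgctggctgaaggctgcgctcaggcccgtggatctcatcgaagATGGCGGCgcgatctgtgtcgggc
MRPL32: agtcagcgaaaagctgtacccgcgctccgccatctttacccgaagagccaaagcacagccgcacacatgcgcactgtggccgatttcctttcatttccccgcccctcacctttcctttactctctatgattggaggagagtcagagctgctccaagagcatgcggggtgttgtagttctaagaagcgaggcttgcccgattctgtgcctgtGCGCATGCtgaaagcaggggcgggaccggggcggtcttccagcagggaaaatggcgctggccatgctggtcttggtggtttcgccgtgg

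Of the promoters shown, the 4 of genes that were higher in sh-METTL3 did not hold a common match. MRPL54 held an ETS match from -21 to -15, counted from the start as 1, and MRPL52 held both an ETS match from -5 to 2 and an NRF1 match from -175 to -168. MRPL17 held NRF1 matches from -81 to -74 and from -43 to -36, the former overlapping a match on the opposite strand from -79 to -72. MRPL50 held a YY1 match from 27 to 34. MRPL32, the gene with the largest fall, held an NRF1 match from -39 to -32.

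RefSeq promoters were matched for 70 members. An ETS match was found in 29 of them, or 41.4%, beside 14.2% of 15842 promoters of protein-coding genes and 10.7% of all 27305 promoters of the same length. The YY1 motif was found in 19, or 27.1%, beside 4.49% and 3.21%. The NRF1 motif was found in 6, or 8.57%, beside 4.26% and 3.27%. At least 1 of the 3 motifs occurred in 45 members, or 64.3%, against 20.6% of coding promoters. ETS and YY1 matches occurred together in 5 members and never overlapped each other. The short motif TATAAA was found in 2 member promoters, 2.86%, beside 9.63% of coding promoters. CCAAT was found in 28.6% beside 36.4%, and the SP1 motif GGGCGG in 61.4% beside 58.5%. Both subunits were alike in ETS matches, with 17 of 42 large and 12 of 28 small subunit genes. In sh-METTL3 the median was 0.01 for members with an ETS match and 0.04 for those without. For NRF1 it was 0.09 with a match, in only 6 members, and 0.02 without. For YY1 it was 0.02 in both. These differences were not tested. A match is a stretch of letters and not a measured binding site.

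The position of a member on its chromosome went along with its change in sh-METTL3. All 4 members on chromosome 7 were below sh-CTL, namely MRPL32, MRPS17, MRPS33 at -0.16 and MRPS24 at -0.15. Their median was -0.27, and the median of 628 other genes of chromosome 7 was -0.25, with 83.0% of these genes below 0. On chromosome 9 all 3 members were above 0 (MRPL50, MRPL41 and MRPS2 at 0.18), with a median of 0.30 against 0.10 for the other genes of the chromosome. On chromosome 19 all 4 were above 0 (MRPL54, MRPL4, MRPL34 and MRPS12 at 0.16), with a median of 0.35 against 0.07.

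To see this along the whole genome, each member was set beside the median change of the 12 listed genes on each side of it. Across the 79 members Pearson's r of the 2 values was 0.62 and Spearman's rho 0.53 in sh-METTL3, as a description over genes that share the same libraries and in part the same neighbours. Without the 11 members on chromosomes 7, 9 and 19, r was 0.40 over 68 members. In sh-CTL + PLK1i r was 0.08 and rho 0.06. MRPL32 lay in a stretch with a median of -0.34, and MRPS24, MRPS17 and MRPL50 lay in stretches at -0.33, -0.32 and 0.35. The part of the neighbouring stretch in a member's change was not tested.

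After the median of the neighbours was subtracted, the SD over members in sh-METTL3 was 0.16 instead of 0.20. In all, 6 members were then at least 1.2-fold higher and 2 lower. The share of all genes after the same subtraction is not given here, so these counts have nothing to be set against. MRPL54 was then at 0.61, MRPL52 at 0.47, MRPL17 at 0.40, MRPS11 at 0.34, MRPS7 at 0.34 and MRPL36 at 0.30. MRPL49 and MRPL53 were at -0.32. MRPL50 (-0.03), MRPL41 (0.16) and MRPL4 (0.20) were no longer past the limit, and neither were MRPL32 (-0.17) and MRPS17 (-0.05). The large subunit median was then 0.03 and the small subunit median -0.02.

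**Figure D3:**
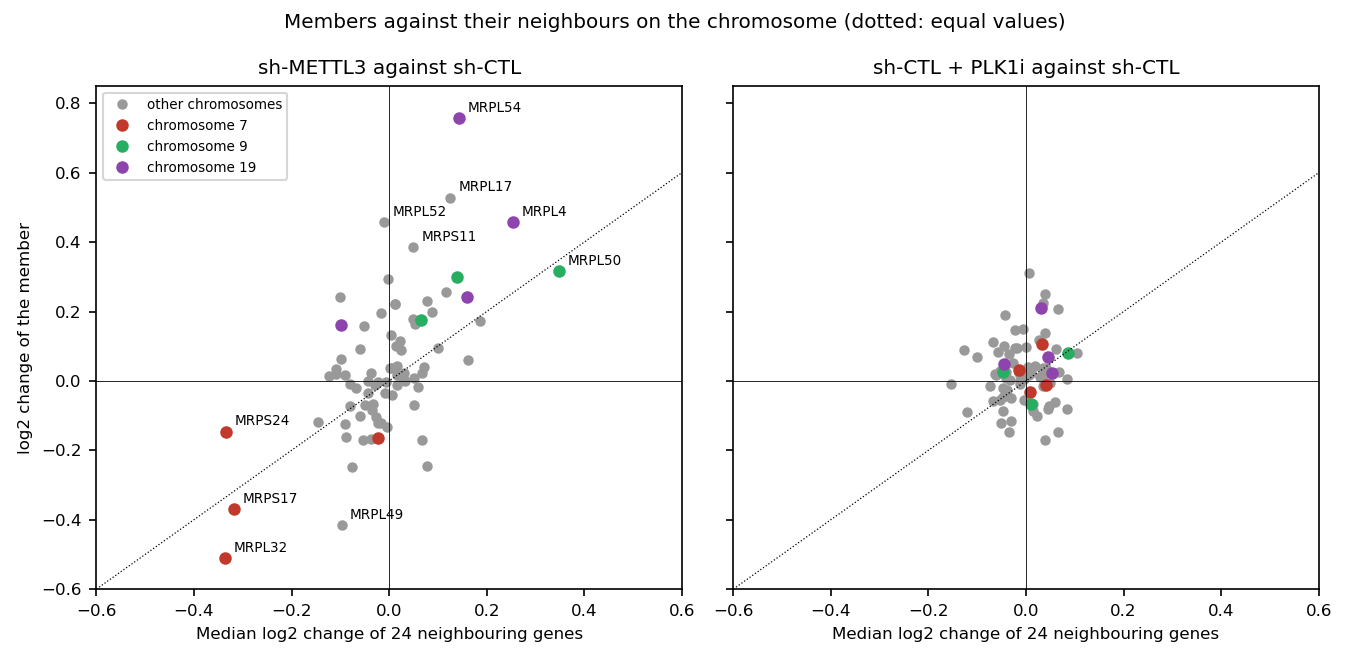
log2 change of each member (vertical axis) against the median log2 change of its 24 neighbouring genes (horizontal axis), in sh-METTL3 on the left and sh-CTL + PLK1i on the right. Points are the 79 members, those on chromosomes 7, 9 and 19 are coloured, and the dotted line marks equal values. The left panel stretches along the line, with chromosome 7 at the lower left and MRPL50 and MRPL4 at the upper right (r = 0.62), and the right panel is a compact cloud (r = 0.08).

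With the PLK1 inhibitor the members stayed closer still to sh-CTL. The median change was 0.02 over all members, 0.02 over the large subunit and 0.00 over the small subunit, and the median of all genes was 0.00. The SD over members was 0.09, beside 0.23 for genes with a mean of at least 200. Of the members 50 lay above 0 and 29 below, and the counting interval lay above 0 for 18, below for 10 and across 0 for 51.

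At least 1.2-fold higher was 1 member, 1.27%, beside 13.2% of all genes and 7.39% of those with a mean of at least 200. At least 1.2-fold lower were 0 members, beside 14.4% of all genes and 8.37% of those with a mean of at least 200. None passed 2-fold, which 2.52% of all genes did. Both shares of members were below those of all genes and of genes above that floor.

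The member past the limit was MRPS28, a small subunit protein, with normalized counts of 403, 403 and 501 and 346, 435 and 544 reads. Its change was 0.31 with a wide interval (0.11 to 0.51), since it is the member with the lowest mean count. MRPL44, a mitochondria-specific protein with an RNase III fold, followed with 0.25 (0.15 to 0.35), just inside 1.2-fold. MRPL33 was at 0.22, and MRPS12, which lines the decoding centre, and MRPL17 were at 0.21 each. The lowest was MRPL19 at -0.17 (-0.23 to -0.11), with normalized counts of 4927, 5133 and 4377. MRPL42 and MRPL28 were at -0.15 and MRPS34 and MRPS16 at -0.12. The 4 genes on chromosome 7 lay between -0.03 and 0.11 with the inhibitor.

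The members' partners in mitochondrial translation were counted by fixed lists. Of the 4 mitoribosomal proteins without an MRP symbol, GADD45GIP1, a large subunit protein whose gene lies on chromosome 19, had normalized counts of 1455, 2187 and 1618. It was at 0.59 in sh-METTL3 and at 0.15 with the inhibitor. The small subunit proteins CHCHD1, AURKAIP1 and PTCD3 were at 0.16, 0.05 and 0.07 in sh-METTL3 and at -0.01, 0.08 and -0.13 with the inhibitor. With these 4 genes added, the subunit medians in sh-METTL3 still differed by 0.04.

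Of 26 genes for assembly of the mitoribosome and modification of its RNA, 4 were at least 1.2-fold higher in sh-METTL3 (15.4%) and 3 lower (11.5%), with a median of 0.04. Over all genes the shares were 19.1% and 18.2%, and above the floor of 200 they were 12.3% and 14.6%. The higher genes were MPV17L2 (0.59), a protein tied to assembly, the endoribonuclease YBEY (0.56), MTERF3 (0.37) and the GTPase NOA1 (0.27). The lower genes were the rRNA methyltransferase MRM2 (-0.47), the large subunit assembly factor MALSU1 (-0.37) and the helicase DDX28 (-0.27). MRM2 and MALSU1 lie on chromosome 7, as do GTPBP10 at -0.16 and RCC1L at 0.01, and MPV17L2 lies on chromosome 19. With the inhibitor the median was 0.07 and no gene passed 1.2-fold, the largest changes being MRM1 at 0.26 and MPV17L2 at 0.25.

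Of 16 translation factors 15 were listed, with medians of -0.06 and -0.04 in the comparisons in that order. The release factor gene MTRF1 was higher in both, at 0.39 and 0.35, on only 182, 301 and 295 reads. The initiation factor MTIF2 was at -0.21 in sh-METTL3 and the release factor MTRF1L at 0.22 with the inhibitor. The 22 genes for charging of mitochondrial tRNA had medians of -0.03 and -0.05. GARS1, which serves both cytosol and mitochondria and lies on chromosome 7, was at -0.50 in sh-METTL3 and was the only one of them past 1.2-fold. That is 4.55%, while 18.2% of all genes and 14.6% of those with a mean of at least 200 were this much lower. GATC was next at -0.24, and with the inhibitor MARS2 (-0.24) and QRSL1 (0.20) changed most.

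Of 13 genes for mitochondrial transcription and its regulators 12 were listed. TFAM, which packages mitochondrial DNA and starts its transcription, had normalized counts of 5207, 3709 and 5560, a change of -0.49 in sh-METTL3. GABPB1, a partner of the ETS factor GABPA, was at -0.28, and YY1, GABPA and NRF1 were at 0.21, 0.19 and -0.13. With the inhibitor PPRC1, a coactivator, was at 0.27 and TEFM at -0.22. The list's medians were -0.04 and -0.02.

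All listed genes with an MT- symbol together made up 4.89%, 4.80% and 5.55% of reads. The mRNAs that the mitoribosome itself translates are the 13 protein-coding ones among them, at a summed 44825, 45349 and 50639 CPM. Their median change was -0.01 in sh-METTL3, with MT-ND5 at 0.37 and MT-ND6 at -0.25. With the inhibitor it was 0.20, with 12 of 13 above 0. MT-ND5 at 0.30 and MT-ND4 at 0.27 were past 1.2-fold. That is 15.4%, while 13.2% of all genes and 7.39% of those with a mean of at least 200 were this much higher. MT-ND6, which is read from the other strand of the mitochondrial genome, was at -0.24. The nuclear members that make up the ribosome for these mRNAs were at a median of 0.02 in the same comparison.

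**Figure D4:**
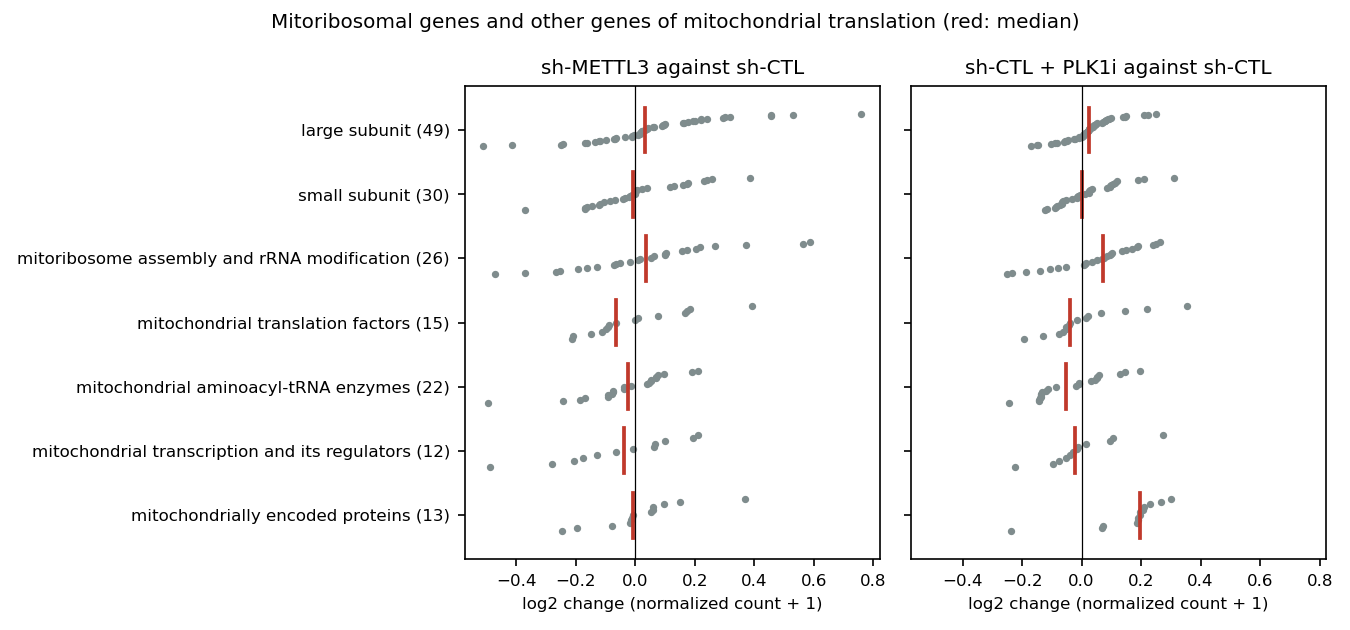
log2 change against sh-CTL of each gene (grey points) in the large and small mitoribosomal subunits and in 5 lists of genes for mitochondrial translation and transcription, in sh-METTL3 (left) and sh-CTL + PLK1i (right). Red lines are list medians and the number of genes is in parentheses. List medians lie between -0.06 and 0.04 on the left, and on the right the 13 mitochondrially encoded mRNAs stand at 0.20.

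The closest gene families gave other medians in sh-METTL3. The 81 cytosolic ribosomal protein genes had a median of 0.12, an SD of 0.12 and 74 genes above 0. The 82 nuclear genes of oxidative phosphorylation had a median of 0.09, an SD of 0.17 and 62 above 0. The members had a median of 0.02, an SD of 0.20 and 45 of 79 above 0. With the inhibitor the medians were 0.00 for cytosolic ribosomal proteins (SD 0.06), -0.05 for oxidative phosphorylation (SD 0.11) and 0.02 for the members (SD 0.09). The differences between families were not tested, because the genes of a family are not replicates of a condition.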

How the data were processed

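RNA of 3 MIAPaCa-2 cultures, isolated with ISOGEN, was sequenced as 1 stranded, polyadenylated-RNA library per group. The submitters' processing notes name FastQC 0.11.9, STAR 2.7.10, RSEM 1.3.3 and the build hg19, without their roles. The authors deposited 1 table of log2 values for 14949 genes, and how they were normalized was not given in the sources used here. The deposited log2 values equalled log2 of a scaled read number plus 4. After this was undone, 1 read was worth 1.17, 0.927 and 0.921, and 100% of 10710, 9950 and 9848 values below 2000 reads were whole to within 0.1. Although RSEM gives estimated counts, the recovered values were whole. Each column was assigned to a sample from the abbreviation in its name.

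Normalized counts were the reads over size factors that were recovered from the deposited values. Changes were differences of log2(normalized count + 1). Ratios have 95% Clopper-Pearson intervals conditional on the sum of reads, with a median half-width of 0.08 and a maximum of 0.22 on the log2 scale. With 1 library per group no count test was run, and the fold limit was 1.2. The steps were tested on simulated data. Lengths, strands and neighbours (mean count of at least 50) came from GENCODE 44 lifted to GRCh37, which held 14858 of the IDs. Of the members, 37 have named pseudogenes, 8 overlap a listed gene on the same strand and 26 on the other, and how reads were divided there was not given. Promoters were from RefSeq. Python 3.11.15, numpy 2.4.6, pandas 2.3.3, scipy 1.17.1 and matplotlib 3.10.9 were used.

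The members and lists were chosen with earlier results of these data known. Named genes were DAP3, the 5 highest and 5 lowest per length, the 5 largest rises and falls, those at the 1.2-fold limit, those on chromosome 7, the MRPS18 and MRPS30 genes, the 4 subunits without an MRP symbol and the 2 largest changes of each list. Others were chosen after their values were seen. Alternatives were the pseudocount, the scaling, a GC and length trend, the filter, the fold, the subunit assignment, and, added after the data were seen, subtraction of neighbours, leaving out chromosomes 7, 9 and 19, and coding length.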

Additional observations from a re-analysis of the deposited data

How the results depend on the processing

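Each subunit median, the difference between subunits, the counts past the fold and the subunit shares were recomputed under alternative settings. There were 15 alternatives for each median and difference, 11 for each count and 3 for each share. Over the 13 results this gave 143 recomputed values. Under the 15 alternatives of each, the large subunit median lay between 0.02 and 0.06 in sh-METTL3 and between 0.01 and 0.03 with the inhibitor, and the large minus small difference stayed between 0.02 and 0.05 in sh-METTL3 and between 0.00 and 0.05 in sh-CTL + PLK1i. The small subunit median crossed 0 (-0.02 to 0.02 and -0.03 to 0.02), so it has no stable sign. At 1.5-fold 1 member was higher and 0 lower in sh-METTL3, and 0 were higher with the inhibitor, and at 2-fold all counts were 0. With a GC and length trend taken out 5 members were lower in sh-METTL3, and with upper quartile scaling 11 were higher. Upper quartile scaling also moved the median of all genes in sh-METTL3 from 0.00 to 0.02. The shares of all genes at 1.5-fold and under these 2 settings are not given here, so these counts have nothing to be set against. The large subunit share was 65.35%, 65.87% and 65.76% per kilobase of transcript, 61.28%, 61.75% and 61.63% per kilobase of coding length, and 62.90%, 62.97% and 63.04% with subunits by structure. Scalings moved the median of all genes by less than 0.1. Single libraries and the depth set the limit: a difference inside the counting interval was not detectable, and no alternative replaces a replicate. No paired analysis was possible because each group held 1 library.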

Other observations

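MRPL46 and MRPS11 are encoded head to head on chromosome 15, with 62 bases between their annotated ends in GRCh37 (89010621 for MRPL46 and 89010684 for MRPS11). MRPL46, a mitochondria-specific large subunit protein, had normalized counts of 1041, 1178 and 1003, a change of 0.18 in sh-METTL3, while MRPS11 changed by 0.39. Another listed gene, ENSG00000173867, overlaps both, so that some of their reads may be shared with it. MRPL28 and MRPS34, which lie apart from each other on chromosome 16, were the only members there and were below the shared sh-CTL library in both comparisons, at -0.16 and -0.17 in sh-METTL3 and at -0.15 and -0.12 with the inhibitor, whereas the median of 639 other genes of the chromosome was -0.03 and 0.01. These genes were chosen after their values were seen.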
